A study of Homo sapiens with 8 samples.

Results

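The regions described here are separate stretches of chromatin that lay inside macroH2A1 domains of both siANP32B libraries and of neither siControl library, at least 10 kb from any siControl domain. They were chosen by the authors' own domain calls in the same 4 libraries: stretches were built on a 1 kb grid over chromosomes 1 to 22 (genome build hg38), and 460 of 3847 siANP32B-only stretches met the distance rule. The other 3387 touched a siControl domain or lay closer than 10 kb to one. HepG2, a human hepatoblastoma line used as a model of liver cells, received either siControl, an siRNA with no intended target, or siANP32B, which targets ANP32B. Frozen cells harvested after 3 days were profiled by CUT&RUN: antibody-bound chromatin is cut free by a tethered nuclease (30 min here) and its DNA is sequenced. Both groups had 2 anti-macroH2A1 libraries, and each library has 1 list of broad domains. Another 4 libraries, made with IgG, were not analysed here. All libraries came from 1 cell line, whether replicates were separate cultures is not stated in the labels, and library depth is unknown because the files hold no read numbers.

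In macroH2A1 the histone fold of H2A is joined by a linker to a macrodomain. It forms broad domains that can span many genes, mostly over weakly transcribed chromatin, and it is best known as a barrier to cell reprogramming and a mark of the inactive X chromosome. Histone chaperones escort histones before deposition and after eviction. ANP32B is an acidic chaperone of the ANP32 family, and the series asks whether it affects the entry of macroH2A into chromatin.

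The bases in front of genes whose start lay inside a separate stretch give a view of the sequence these stretches hold. They are shown for the best-scored stretches with a protein-coding start, 5′ to 3′ on the gene's strand, as the 250 bases before the start (RefSeq, GRCh38.p14, the same assembly as hg38). Capitals mark matches, on either strand, to the TATA box TATAAA, the GC box motif GGGCGG, the CCAAT box or the AP-1 site TGACTCA.
PDE4DIP (chr1:148951888-148952137, plus strand): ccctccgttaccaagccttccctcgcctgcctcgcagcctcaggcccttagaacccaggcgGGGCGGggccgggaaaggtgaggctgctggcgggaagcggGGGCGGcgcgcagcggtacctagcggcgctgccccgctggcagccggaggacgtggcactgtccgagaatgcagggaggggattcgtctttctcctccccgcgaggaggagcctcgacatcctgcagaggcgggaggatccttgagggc
NRG4 (chr15:76012425-76012674, minus strand): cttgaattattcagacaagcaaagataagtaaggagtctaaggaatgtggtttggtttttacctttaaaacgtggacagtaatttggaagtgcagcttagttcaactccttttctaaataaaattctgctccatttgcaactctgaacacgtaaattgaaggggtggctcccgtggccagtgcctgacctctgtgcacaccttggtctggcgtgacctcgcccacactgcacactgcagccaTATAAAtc
PLEKHS1 (chr10:113751432-113751681, plus strand): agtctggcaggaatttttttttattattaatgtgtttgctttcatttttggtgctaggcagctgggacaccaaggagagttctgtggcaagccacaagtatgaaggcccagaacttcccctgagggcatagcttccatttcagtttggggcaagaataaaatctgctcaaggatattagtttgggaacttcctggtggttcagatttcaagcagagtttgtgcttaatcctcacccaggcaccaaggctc
SCMH1 (chr1:41242307-41242556, minus strand): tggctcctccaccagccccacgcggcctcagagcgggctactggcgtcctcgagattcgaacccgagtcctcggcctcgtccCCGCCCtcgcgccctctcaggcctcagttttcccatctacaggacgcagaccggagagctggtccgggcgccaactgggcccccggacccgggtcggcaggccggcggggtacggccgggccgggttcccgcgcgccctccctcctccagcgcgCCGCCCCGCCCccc
These 4 windows differ widely in composition. The SCMH1 window, before a Polycomb group gene, is 75.6% G and C with 31 CG dinucleotides and 3 GC boxes, and the PDE4DIP window, before a start of the gene for the scaffold protein myomegalin, is 70.4% with 23 CG and 2 GC boxes. The NRG4 window (a growth factor of the neuregulin family) is 44.4% with 5 CG and 1 TATA box, and the PLEKHS1 window, at 44.8%, holds no CG and none of the 4 motifs. The starts of NRG4 and PDE4DIP shown here lie inside longer annotated gene spans. By the same order of scores, the divergent pair BRCA2, a gene of homologous recombination, and ZAR1L also belong here, with starts at 32315508 and 32315363 on chromosome 13 in 1 stretch of 22 kb. Their windows overlap each other's gene and are not printed.

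The separate stretches were mostly short and lay far from one another. Together they covered 11.1 Mb, which is 0.388% of the autosomes and 24.3% of all siANP32B-only length. The median length was 21 kb (interquartile range 12 to 30 kb, full range 1 to 219 kb). Only 26 stretches reached 50 kb and 5 reached 100 kb, whereas 77 were under 10 kb. The median gap to the nearest siControl domain was 48 kb, 121 stretches (26.3%) lay 100 kb or more away, and 10 lay 500 kb or more away. The 13 stretches just inside the rule, at a gap of 10 kb, had a median length of 12 kb (1 to 53 kb), and the 13 just outside it, at 9 kb, had 17 kb (2 to 56 kb). Most stood apart from other separate stretches. When separate stretches within 100 kb of each other were joined, 408 loci resulted, of which 360 held 1 stretch, 44 held 2 and 4 held 3. The joining left out all other siANP32B-only stretches.

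**Figure D1:**
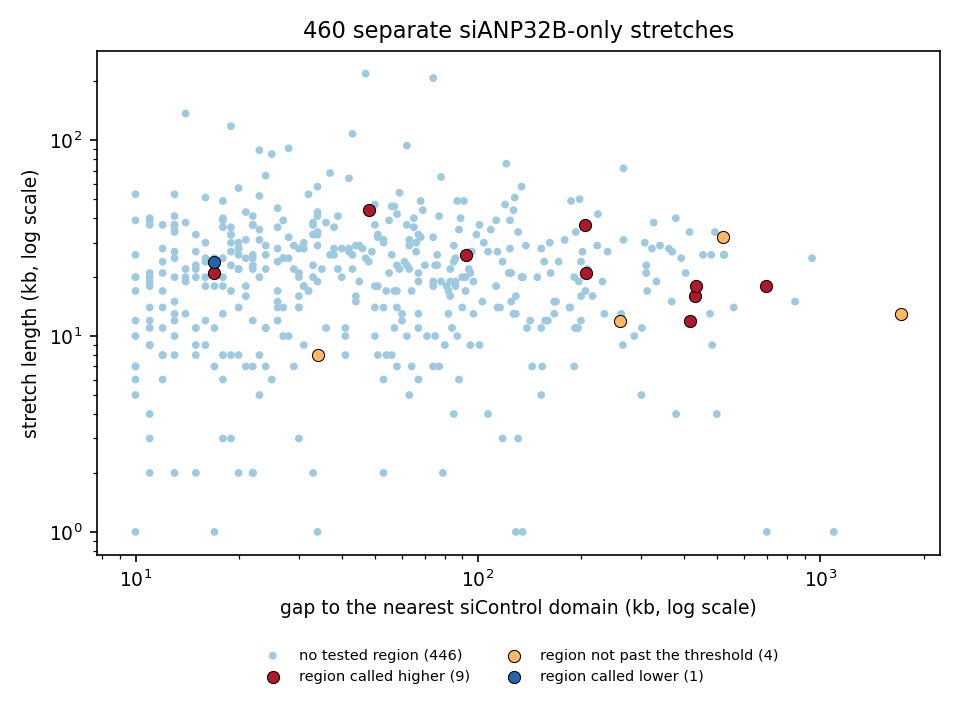
Length of each of the 460 separate stretches (vertical axis, kb, log scale) against its gap to the nearest siControl domain (horizontal axis, kb, log scale); larger outlined points mark the 14 stretches that overlap a region of the authors' deposited table, coloured by its call. Long and short stretches occur at most distances, and the stretches with a tested region have gaps from 17 to 1724 kb.

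The same rule turned around gave a set of similar size with the lists as deposited, but not under other settings. Sequence in both siControl lists and neither siANP32B list, at least 10 kb from any siANP32B domain, came to 420 stretches with 9.67 Mb and a median length of 17 kb. Knockdown cells therefore had 460 separate stretches of their own and control cells 420, and which number was larger depended on how domains were handled. Over the main analysis and 11 other settings, the siANP32B-only number was the larger in 6 and the smaller in 6. With equal numbers of best-scored domains there were 644 siANP32B-only against 314 siControl-only stretches, and without the lowest-scored 25% of siANP32B domains 200 against 1261. The first setting kept 7404 domains per list and so cut mainly the siControl lists (8623 and 8116 domains). The second cut only the siANP32B lists, so the direction of both follows largely from their construction. The numbers were 228 against 254 with a gap of at least 50 kb, and 393 against 429 without the lowest-scored 25% of domains in every list. Each library mattered to the count. Without siControl replicate 1 there were 1108 siANP32B-only against 801 siControl-only stretches, and without siControl replicate 2 733 against 1038. Without siANP32B replicate 1 the numbers were 833 against 878, and without siANP32B replicate 2 816 against 879. Fewer lists loosen the rule, so these larger counts follow in part from its construction.

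The domains that held the stretches had low to middling scores. The score is the authors' deposited value per domain and serves here to rank domains within a list. Its median over the stretches was 58.7 in siANP32B replicate 1 (highest 194) and 57.9 in replicate 2 (highest 257), against 70.1 and 67.5 over all 7530 and 7404 domains of those lists. In both lists together, 226 stretches lay below the list's median and 88 above it. Across the 460 stretches the scores of the replicates had a Spearman rho of 0.35 and a Pearson r of 0.43 (a description, since neighbouring stretches can share a domain). The siControl-only stretches also sat low in their own lists, at a median percentile of 37.9 and 43.5, against 35.6 and 37.3 here. In 336 cases neither replicate's domain reached a siControl domain, and in the other 124 at least 1 of the domains stretched on to one. A stretch made up a median of 69.1% of its domain in replicate 1 and 69.0% in replicate 2.

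**Figure D2:**
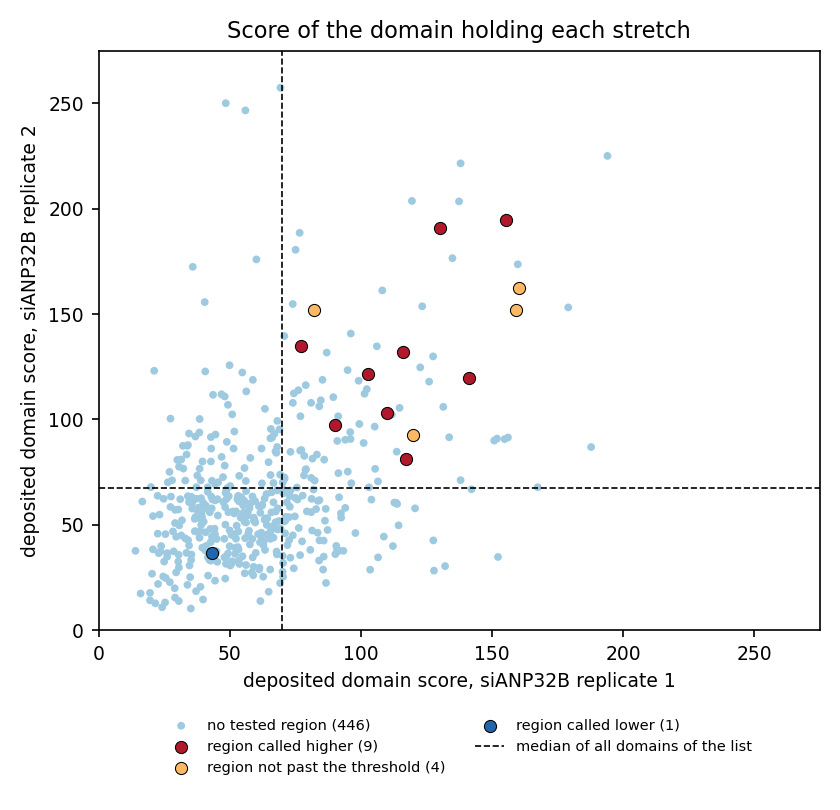
Deposited score of the domain holding each stretch in siANP32B replicate 1 (horizontal axis) and replicate 2 (vertical axis); dashed lines are the medians of all domains in each list (70.1 and 67.5), and outlined points overlap a region of the authors' deposited table. Of the 460 stretches 226 lie below both medians and 88 above both, and 13 of the 14 outlined points are above both.

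Longer stretches tended to have lower scores. Ranked by the lower of their 2 scores, the lowest 25% (116 stretches, 10.2 to 34.6) had a median length of 29 kb and the highest (115 stretches, 62.8 to 194) had 15 kb, and over all 460 stretches length and this score had a Spearman rho of -0.35 and a Pearson r of -0.32. The longest stretch, 219 kb on chromosome 16 from 26989001 to 27208000, had scores of 24.2 and 10.9, inside the lowest 2.34% and 0.108% of their lists. It ended in KDM8, which encodes a JmjC-domain protein, and held the whole of C16orf82. The next, 208 kb on the same chromosome from 27779001 to 27987000, covered 199 kb of GSG1L, an auxiliary subunit gene of AMPA glutamate receptors, with scores of 33.9 and 21.5. Other long ones lay over LBH, a transcriptional regulator of limb and heart development (137 kb, chromosome 2), ARFGEF3 (118 kb, chromosome 6) and WIPF1, a regulator of actin assembly (108 kb, chromosome 2), with scores between 10.2 and 35.2. Stretches of 58 to 94 kb lay over KCNMA1, LOC112267968, RAB39A, AFF3, DTNBP1, MOCS1 and TENM2, of which AFF3, a nuclear factor of the AF4 family, and TENM2, a teneurin adhesion gene, had scores of 77.6 and 73.1 in replicate 1 but 42.1 and 34.3 in replicate 2. At DTNBP1 and MOCS1 the stretch lay almost wholly beside the gene (4.06 of 65 kb and 0.462 of 58 kb shared).

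Of the 8 best-scored stretches, which were 1 to 18 kb long, 1 lay in a protein-coding gene and 3 lay wholly or partly in other annotated genes. Over all stretches, the share in coding genes did not change steadily with the lower score. At least 50% of the length was in coding genes for 37.4% of the best-scored 115 stretches and for 38.8% of the lowest-scored 116. In between, it was 48.7% for the 115 stretches scored 45.9 to 62.4 and 43.0% for the 114 scored 34.7 to 45.8. The best-scored group thus had the lowest share, close to that of the lowest-scored group, and these differences were not tested. The highest pair of scores, 194 and 225, belonged to 7 kb on chromosome 17 (13950001 to 13957000), 113 kb from COX10. Next came 13 kb on chromosome 13 (89549001 to 89562000), with scores of 160 and 162, the stretch farthest from any siControl domain (1724 kb). A stretch of 18 kb on chromosome 10 (56087001 to 56105000) had 155 and 195, and 9 kb inside GRIK2, a kainate-type glutamate receptor gene, had 137 and 203. Among the 8 best-scored stretches, 2 lay in centromeric regions, 1 kb on chromosome 20 (28162001 to 28163000) and 4 kb on chromosome 2 (93825001 to 93829000), where repeated sequence makes the placement of reads uncertain. Stretches outside these 8 lay near there too, such as those between 93307001 and 94088000 on chromosome 2. The part of read placement in these scores was not tested. The remaining ones were 12 kb on chromosome 13 (22462001 to 22474000) and 9 kb on chromosome 22 (21210001 to 21219000). No gene of any kind was annotated in 108 of the 460 stretches. The longest gene-free ones were 91, 66 and 46 kb on chromosome 2 (from 138173001, 176411001 and 136047001), the last 21.3 kb from CXCR4, then 76 kb on chromosome 5 (from 142475001, 41.2 kb from FGF1) and 57 kb on chromosome 9 (from 78033001, 1.19 kb from GNAQ).

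Few of the stretches were measured in the authors' test of differences. The authors' deposited table compares siANP32B with siControl over 4474 regions, of which 62.3% passed a false discovery rate of 0.05 (58.4% lower and 3.82% higher after siANP32B), and only 14 of the 460 stretches (3.04%) shared a base with one of them. Of the 14 tested regions in the authors' deposited table, 9 were called higher, 1 lower, and 4 did not pass. The table and the domain lists come from the same libraries, so this count follows from how the stretches were chosen and is no separate evidence. The median log2 fold of the 14 in the authors' deposited table was 0.69, against -0.54 over all tested regions. Around the siControl-only stretches the picture was turned around: 30 of the 420 overlapped 35 tested regions, of which 32 were lower, 0 higher and 3 not past the threshold in the authors' deposited table. The 14 stretches with a tested region had median scores of 117 and 127 in the 2 replicates, and the 446 without one 57.6 and 57.5.

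GRK3, which encodes a kinase that desensitises G protein-coupled receptors, had the largest fold among them. Its stretch of 44 kb (chromosome 22, 25625001 to 25669000) lay inside the gene, with scores of 110 and 103, and the authors' deposited table lists 11 kb of it at a log2 fold of 1.90 (FDR 1.44e-13). Domains covered 7.83% and 0% of the GRK3 gene body in siControl replicates 1 and 2 and 27.7% and 30.1% in siANP32B replicates 1 and 2. Both siANP32B libraries lay above both siControl libraries there, as the rule tends to require wherever a stretch fills much of a gene.

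Smaller folds were recorded at SPEF2, a gene of sperm flagella (0.77, FDR 0.00107), PDE4DIP (0.72, FDR 0.000817) and ERO1B, an oxidase of disulfide formation in the endoplasmic reticulum (0.65, FDR 0.00425), all in the authors' deposited table. Outside coding genes, the regions called higher in the authors' deposited table were those in the chromosome 10 stretch named above (0.95, FDR 1.28e-05), in 18 kb on chromosome 5 that lay 41.3 kb from IRX2 (0.84, FDR 0.00207), in 12 kb on chromosome 1 near NBPF8 (0.71, FDR 0.000821) and in 21 kb on chromosome 9, 33.9 kb from S1PR3 (0.68, FDR 0.00382). NBPF8 belongs to a family of near-identical copies on chromosome 1, where reads cannot be placed with certainty; PDE4DIP, on the same chromosome, also has near-identical copies. The part of read placement in these folds was not tested. The stretches on chromosome 13 at 22462001 and 89549001, among the best-scored of all, did not pass in the authors' deposited table (log2 folds 0.48 and 0.20, FDR 0.0676 and 0.41), and neither did TRIQK (0.39, FDR 0.103) or the stretch nearest to FSTL5 (0.32, FDR 0.187). One went the other way: a stretch of 24 kb on chromosome 3 (132212001 to 132236000), with scores of 43.1 and 36.6, shared 8 kb with a region called lower (-0.54, FDR 0.0244) in the authors' deposited table. There the authors' domain calls and the fold of the representative window pointed in opposite directions.

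**Figure D3:**
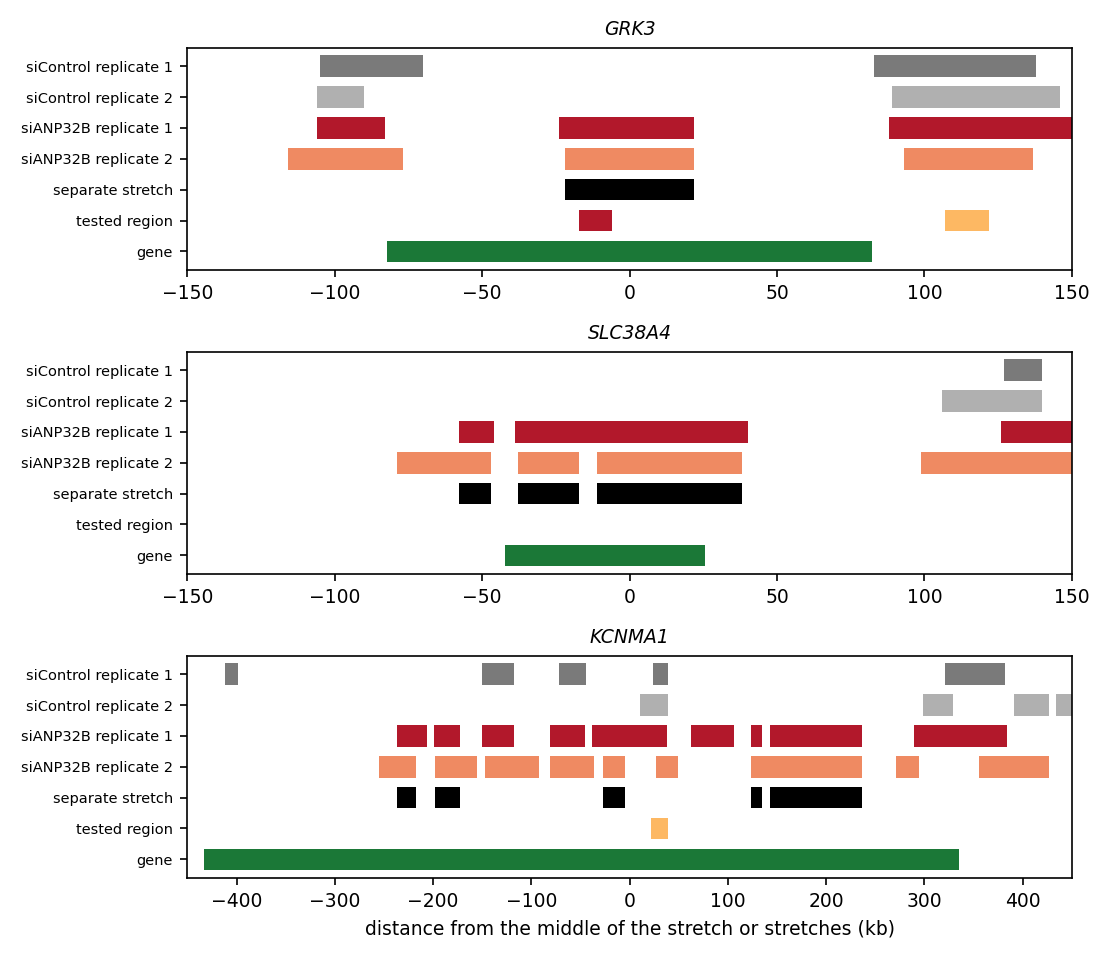
Domains of the 4 libraries, separate stretches, tested regions (red, called higher; yellow, not past the threshold) and the gene span at GRK3, SLC38A4 and KCNMA1, against the distance from the middle of the stretch or stretches (kb). At each locus both siANP32B tracks hold domains where both siControl tracks are empty, with siControl domains farther out or, at KCNMA1, between the stretches.

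KCNMA1, the gene of the large-conductance calcium-activated potassium channel, held more separate stretches than any other, with 5. They measured 19, 26, 23, 11 and 94 kb between 77066001 and 77539000 on chromosome 10, with scores between 36.9 and 63.6. The stretches of 11 and 94 kb lay 8 kb apart, inside the same domain of 113 kb in siANP32B replicate 2. Domain coverage of the KCNMA1 gene body, 768 kb long, was 13.5% and 7.80% in the siControl libraries and 51.8% and 47.2% in the siANP32B libraries. At SLC38A4, an amino acid transporter gene, 3 stretches lay within 96 kb, and 2 of them touched the gene. Its body was covered by 0% in both siControl libraries against 94.2% and 84.1% in siANP32B replicates 1 and 2. NAV2, OR1J2, and TRPM4 with SLC6A16 formed the other loci of 3 stretches.

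The sequence around the stretches is described with no test, because the same 4 lists chose the stretches and the rule favours fewer siControl domains nearby. Within the band from 10 to 110 kb on both sides, domains covered 19.7% and 16.6% in siControl replicates 1 and 2 and 28.0% and 27.6% in siANP32B replicates 1 and 2, or 18.1% ± 2.21 against 27.8% ± 0.306 (SD, n = 2 each). Both siANP32B libraries lay above both siControl libraries, by 9.65 percentage points on average. The rule reaches into this band: from 10 to 20 kb the siControl libraries had only 5.81% and 3.57%, and 124 stretches lay in domains that ran on to a siControl domain. From 310 to 510 kb the values were 21.9% and 19.4% against 23.9% and 22.9%, closer together, and all 4 above the autosome-wide coverage of 17.9% and 16.2% in siControl and 19.6% and 19.4% in siANP32B. Around the siControl-only stretches, chosen by the mirrored rule, the band had 17.5% and 16.1% in siControl replicates against 13.5% and 14.5% after siANP32B, a difference of -2.80 points whose direction the choice also favours. When the stretches were defined without siANP32B replicate 1 or without siANP32B replicate 2 the difference was 2.63 and 4.77 points. It was 4.10 points without the lowest-scored 25% of siANP32B domains and 4.37 points over a wider band, from 10 to 510 kb.

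**Figure D4:**
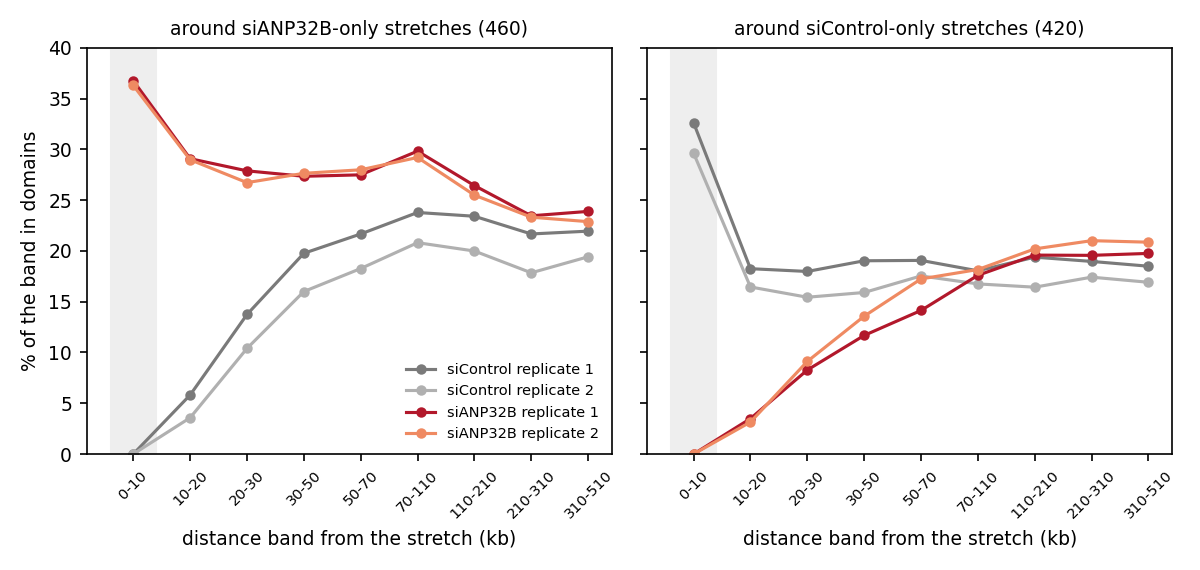
Percent of sequence in domains (vertical axis) by distance band from the stretches (horizontal axis, kb) for each of the 4 libraries, around siANP32B-only (left) and siControl-only stretches (right); the shaded band, 0 to 10 kb, is set by the rule. On the left the siANP32B libraries stay between 26.7% and 29.8% from 10 to 110 kb while the siControl libraries climb from 0%, and on the right the order is turned around up to 70 kb; the rule favours both orders.

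Chromosomes did not contribute evenly. The stretches averaged 0.160 per Mb over the autosomes, with the most per Mb on chromosomes 22 (0.335, 17 stretches), 11 (0.281, 38 stretches) and 19 (0.239, 14 stretches) and the fewest on chromosome 20 (0.0466, 3 stretches). SiControl-only stretches had 0.0787, 0.178, 0.154 and 0.171 per Mb on these chromosomes. Of the 22 autosomes, 12 held more siANP32B-only than siControl-only stretches and 10 held fewer. On chromosomes 2, 14, 16, 17 and 20, present in extra copies in HepG2, the rates were 0.111 per Mb for siANP32B-only and 0.141 for siControl-only stretches. Within 500 kb on each side, the median density was 6.90 protein-coding genes per Mb (interquartile range 3.94 to 10.8), against 5 over 1 Mb windows of the autosomes.

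**Figure D5:**
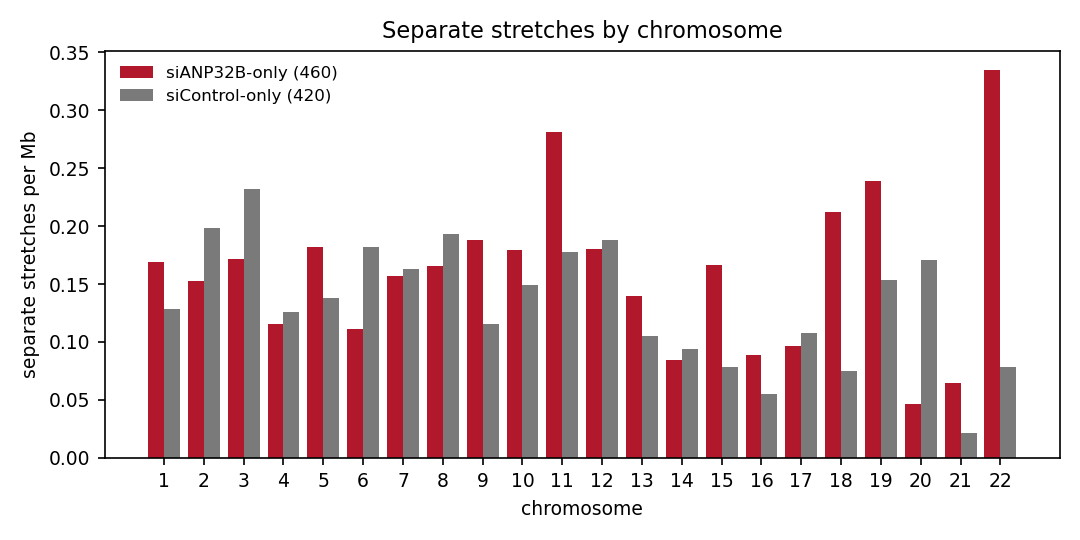
Number of separate stretches per Mb (vertical axis) on each autosome (horizontal axis), for siANP32B-only stretches (red, 460 in all) and siControl-only stretches (grey, 420). Chromosomes 22 and 18 have 17 siANP32B-only stretches each against 4 and 6, and chromosome 20 has 3 against 11.

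Separate stretches lay in protein-coding genes about as often as the genome at large. Of their length, 42.3% was in protein-coding gene bodies, 15.8% in other annotated genes and 41.9% outside genes, against 42.1%, 13.8% and 44.1% of the autosomes. The autosome shares are over the whole grid of 2874 Mb, from which assembly gaps were not left out. Sequence in domains of all 4 libraries had 29.9% in protein-coding gene bodies and siControl-only stretches 31.8%, while the siANP32B-only stretches that were not separate had 44.4%. At least 50% of the length was in coding genes for 193 of the 460 stretches (42.0%, exact 95% binomial interval 37.4% to 46.6%) and for 139 of the 420 siControl-only stretches (33.1%, 28.6% to 37.8%). These intervals overlap, cover counting error only and treat neighbouring stretches as independent; the difference itself was not tested. A coding gene was touched by 235 stretches, 138 of them lying wholly inside coding genes, and 117 touched only other annotated genes.

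In all, 244 of 19122 autosomal protein-coding genes (1.28%) shared at least a base with a stretch. These genes were long, with a median of 79.9 kb against 24.5 kb over all coding genes, and 85 of the 1913 longest genes (4.44%, from 153 kb up) were touched but 7 of the 1913 shortest (0.366%). A count for a gene family therefore has to be read against the length of its members. Of the 244 genes, 138 (56.6%) had 0% of their body in siControl domains in both replicates, against 55.1% of all 19122 coding genes. These shares are not matched for gene length, and the rule favours sequence away from siControl domains, so nothing is read from them. Of the 244 genes, 25 lay wholly inside a stretch. The 25 included CD2, a T cell adhesion gene, TSPO, a mitochondrial outer membrane protein gene, CRYBB1 and MIP of the eye lens, the muscle actinin gene ACTN3, and the forkhead gene FOXB1; apart from FOXB1, these were picked after their values were seen.

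Counts for ion channel and neural gene families were small and are set beside the shares of all coding genes by length range. Single genes were not matched for length. The touched potassium channel genes KCNMA1 (768 kb), KCNJ3 (160 kb) and KCNC4 (73.8 kb) were longer than their list's median. LRFN2 (196 kb) and GABRR1 (53.8 kb) were shorter than theirs. Of all coding genes, 0.889% were touched at 35.7 to 52.7 kb and 1.73% at 52.7 to 84.0 kb. The share was 1.78% at 84.0 to 152 kb and 4.44% from 153 kb up. Differences from these shares were not tested. Of 19 voltage-gated sodium and calcium channel genes (median length 153 kb) 2 (10.5%) were touched, CACNA1A and CACNA1E, and of 94 potassium channel genes (median length 40.6 kb) 3 (3.19%), KCNMA1, KCNJ3 and KCNC4. Domains already covered 45.5% and 46.2% of CACNA1A in siControl replicates 1 and 2, against 60.5% and 69.4% after siANP32B. CACNA1E had 5.69% and 1.22% in siControl against 5.08% and 1.83% after siANP32B, so its groups overlapped. Of 39 synaptic and neural adhesion genes (median length 298 kb) 3 (7.69%) were touched, DSCAML1, NCAM1 and LRFN2, and of 45 glutamate, GABA and glycine receptor genes (median length 146 kb) 2 (4.44%), GABRR1 and GRIK2. NCAM1 had 0% in both siControl libraries against 15.4% and 13.2%, and DSCAML1 20.7% and 24.0% against 81.3% and 60.1%. EPHB2 and SEMA4D were touched among 71 axon guidance genes (2.82%, median length 70.3 kb), and none of the 93 cadherins and protocadherins (median length 100.0 kb) was.

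Among matrix and signalling genes, 2 of 42 collagens (4.76%, median length 133 kb) were touched, COL5A1 and COL22A1. Of 39 ADAM and ADAMTS proteases (89.9 kb) 3 (7.69%) were, ADAMTS2, ADAM19 and ADAMTS9. LAMC3 was touched among 41 integrin and laminin genes (2.44%, 79.4 kb), and PDE9A and PDE11A among 24 phosphodiesterases (8.33%, 131 kb). Apart from PDE9A (122 kb), the touched genes were longer than the median of their list, for example PDE11A (485 kb) and COL22A1 (326 kb). Of all coding genes 1.28% were touched, with 1.73% at 52.7 to 84.0 kb, 1.78% at 84.0 to 152 kb and 4.44% from 153 kb up. These differences were not tested. LAMC3, a laminin chain of basement membranes, went from 22.1% and 17.4% to 90.7% and 100%, whereas COL22A1, with 0% and 14.1% against 8.87% and 7.95%, overlapped between the groups. Not every touched gene had more coverage as a whole: 226 of the 244 (92.6%) were above both siControl values in both siANP32B libraries and 18 were not. Over all coding genes that share was 9.31%, and nothing is read from the gap, since genes were picked by sequence in both siANP32B lists and neither siControl list. Among compact families, 4 of 50 keratins (8%, median length 7.5 kb) were touched, against 0.837% of all coding genes at 6.67 to 11.1 kb. These 4 lay in only 2 stretches of chromosome 12. The epithelial keratins KRT4 and KRT79 were in one and the hair keratins KRT82 and KRT84 in the other. KRT4 lay wholly in its stretch, covered by 0% in both siControl and 100% in both siANP32B libraries. The olfactory receptors OR1J2, OR8B8 and OR5B21 (3 of 372, 0.806%), FOXB1 (1 of 42 forkhead genes, 2.38%), FZD3 (1 of 41 WNT pathway genes, 2.44%), ABCG1 (1 of 43 ABC transporters, 2.33%), IL20 (1 of 127 chemokine and interleukin genes, 0.787%) and ZNF423 (1 of 467 ZNF genes, 0.214%) complete the touched members of the lists.

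No member was touched in 14 of the 30 lists, among them 39 hepatocyte genes, 55 cytochrome P450 genes, 39 HOX genes, 70 replication-dependent histone genes, 26 blood lineage genes and 28 genes of ANP32 proteins, macroH2A and other histone chaperones. With 1.28% of all coding genes touched, 0 in lists of these sizes is not read as a result. ANP32B, the siRNA target, lay 448 kb from the nearest separate stretch, and MACROH2A1 and MACROH2A2 lay 2354 and 6954 kb away. The median gene of several of these lists is short (11.8 kb for hepatocyte genes, 0.494 kb for histone genes). The 20 receptor-type tyrosine phosphatases (190 kb), also with 0, are long. Of the longest genes 4.44% were touched, so 20 members are too few to read a 0.

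Gene starts inside the stretches had fewer CG dinucleotides than starts elsewhere. In the RefSeq promoter table, which matched 191 of the 244 touched genes and can list several starts per gene, 101 protein-coding starts lay in 75 stretches. None of the 101 is on chromosome 8, so no rate per Mb is given. The 250 bases before these 101 starts held a median of 11 CG dinucleotides (interquartile range 3 to 24), against 17 (5 to 26) over all 21155 coding starts and 15.5 (6 to 25.3) in siControl-only stretches. The GC box GGGCGG was present in 42.6% of them and in 54.0% of all coding starts, TATAAA in 13.9% and 9.03%, CCAAT in 28.7% and 32.4%, and TGACTCA in 0.99% and 3.43%. The ranges overlap widely, starts of 1 gene are not independent, and these differences were not tested. A match is only a match of letters. Other transcripts touched by the stretches were 188 lncRNA genes (1.06% of 17795) and 11 microRNA genes (0.613% of 1793), among the latter MIR96 and MIR183, which lie side by side in 51 kb on chromosome 7 and are known from sensory hair cells; these microRNAs were picked after the values were seen.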

How the data were processed

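Domain lists were deposited for the 4 anti-macroH2A1 libraries (siControl and siANP32B, 2 each), 1 list per library, on a 1 kb grid with the authors' score per domain. The authors' tools, per the submitters' processing notes, include SICER, edgeR, Bowtie2, Trim Galore, deepTools and SAMtools, with build hg38. Versions, settings, controls and scaling: not given in the sources used here. For each tested region the authors' deposited table gives a log2 fold of a representative window, a p-value and false discovery rate, and numbers of windows; it has 0 columns with values per sample, and a positive fold was taken, from the domain lists, to mean more signal after siANP32B.

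Stretches were built with Python 3.11.15, pandas 2.3.3 and numpy 2.4.6; the finder was tested on simulated data. Gaps were measured to the union of both siControl lists. Gene spans came from RefSeq (GRCh38.p14), which gives no exons. The score of a stretch is that of its domain in each siANP32B list. All comparisons are descriptions, because the rule used all 4 lists. An exact permutation test over libraries, planned for the sequence around the stretches, is not read for the same reason. The members and gene lists were chosen with earlier results of these data known. Named genes are the coding gene with the longest overlap for the 12 longest stretches in coding genes, the 8 with the highest lower score and those with a tested region, up to 4 genes per list, the 5 longest gene-free stretches, and ANP32B, MACROH2A1 and MACROH2A2; other genes were chosen after their values were seen. Some genes that this rule picks are not reported here. Promoter sequences follow the score order for 6 genes, chromosome 8 left out. The counted gene starts hold none from that chromosome either. Alternatives changed the gap, the score threshold, the number of domains, the smallest length, the chromosomes, the overlap that counts and each library in turn. Replicates may be technical, and the spread between them covers no more than these libraries.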

Additional observations from a re-analysis of the deposited data

How the results depend on the processing

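Of 60 alternative values, 34 stayed close to the main value and 26 moved. Close means within 1.5 times for a count, within the exact 95% interval for a percentage and within the larger SD between replicates (2.21 points) for the flank difference. Only the flank difference has a sign, and it stayed positive, as the rule favours. Which group had more separate stretches did change: siANP32B in 6 of 12 settings, siControl in 6. Settings that cut the lists of the groups unequally favour 1 direction by construction. With a gap of at least 50 kb there were 228 separate stretches, 37.3% of them with at least 50% of their length in protein-coding gene bodies, and 108 protein-coding genes were touched. Without the lowest-scored 25% of siANP32B domains 200 stretches and 106 genes were left, and 6.50% of stretches overlapped a tested region; without the lowest-scored 25% of domains in all 4 lists that share was 6.62%. With equal numbers of best-scored domains 424 genes were touched. Any overlap with a protein-coding gene, in place of 50% of the length, held for 51.1% of stretches. Leaving out 1 library at a time gave 733 to 1108 stretches, 390 to 656 genes, 36.1% to 40.7% in protein-coding gene bodies, 1.72% to 5.96% with a tested region and a flank difference of 2.63 to 8.71 points. The cause of these moves was not tested beyond the rule itself, which admits more stretches when it has fewer lists to satisfy. The flank difference, 9.65 points in the main analysis, was 4.10 without the lowest-scored 25% of siANP32B domains, 12.5 with equal numbers of domains and 4.37 over 10 to 510 kb. With the replicate block it was 9.65 points, with no test read; the labels give the replicates a shared number only, and their deviations over 1 Mb windows had a correlation of 0.176. Unknown depth limits any statement on single stretches.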

Other observations

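On chromosome X, outside the rule, 1 separate siANP32B-only stretch of 15 kb was found.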
